A study of Mus musculus with 4 samples.

Results

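The interleukin-1 family genes examined here are the cytokines Il1a, Il1b, Il18 and Il33, the antagonist Il1rn and the receptors Il1r1, Il1r2 and Il1rl1. They were chosen by name, with earlier results of these data known, so shares over all genes are given below for scale and are no test. Every probe set that the platform annotation maps to 1 of these 8 genes was taken. That gave 10 probe sets for 7 genes, 3 of them for Il1rn, 2 for Il1r1 and 1 each for Il1a, Il1b, Il18, Il33 and Il1r2. No probe set was named for Il1rl1, the IL-33 receptor, which was not analysed here. Probe sets of the same gene read the same RNA and are not replicates.

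Gene expression was measured in distal colon on 4 Affymetrix mouse arrays, each from 1 mouse. For all 4 mice the labels put the age when treatment began at 8 to 10 weeks. The groups were untreated Adamts12 WT, untreated Adamts12 KO, WT given 2% DSS (dextran sodium sulfate, a sulfated sugar polymer toxic to the gut lining) and KO given 2% DSS. Adamts12 encodes a secreted metalloprotease, and the labels give neither the deleted part of the gene nor the strain. DSS was in the drinking water for 7 days per the series text and for 8 days per the treatment protocol, then withdrawn for 1 day. With 1 array in each group there is no replicate check, and the number of arrays limits the precision. Values are log2 expression as deposited, and a difference of 1 is 2-fold.

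IL-1 alpha and IL-1 beta are alarm cytokines that signal through IL1R1 and its accessory chain to MyD88, IRAK kinases, TRAF6 and NF-kB. IL-1 beta and IL-18 are made as precursors that inflammasome caspases cut, whereas IL-33 is held in the nuclei of stromal and epithelial cells and released on damage. The family carries its own brakes: IL1RN occupies IL1R1 without signalling, and IL1R2 binds IL-1 as a decoy. In the gut, IL-18 is made by epithelial cells without injury, while IL-1 beta comes largely from myeloid cells.

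The promoter windows of 4 cytokine genes are shown because Il1b and Il33 were higher on both DSS arrays, Il1a is the neighbour of Il1b on chromosome 2, and Il18 had its low value on the untreated KO array. Each window runs from 250 bases before to 50 after the RefSeq start site (GRCm38.p6), on the gene's strand. Capitals mark matches to any of the motifs searched, which in these windows are TATAAA, AP-1 (TGANTCA) and C/EBP (TTGCNNAA). Il1a lies at chr2:129309923-129310222 and Il1b at chr2:129371090-129371389, both on the minus strand. Il18 lies at chr9:50554450-50554749 and the window of the second Il33 start site at chr19:29945540-29945839, both on the plus strand.
Il1a: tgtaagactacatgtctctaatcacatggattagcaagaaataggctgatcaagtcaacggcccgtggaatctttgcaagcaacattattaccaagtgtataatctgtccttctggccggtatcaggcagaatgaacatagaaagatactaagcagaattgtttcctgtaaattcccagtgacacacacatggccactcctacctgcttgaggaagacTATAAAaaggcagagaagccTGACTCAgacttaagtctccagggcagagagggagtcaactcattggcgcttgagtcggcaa
Il1b: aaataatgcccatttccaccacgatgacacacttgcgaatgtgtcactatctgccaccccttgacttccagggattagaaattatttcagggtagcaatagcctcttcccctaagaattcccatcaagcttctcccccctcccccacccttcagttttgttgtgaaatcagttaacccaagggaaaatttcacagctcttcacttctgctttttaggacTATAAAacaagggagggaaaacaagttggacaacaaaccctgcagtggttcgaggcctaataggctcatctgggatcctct
Il18: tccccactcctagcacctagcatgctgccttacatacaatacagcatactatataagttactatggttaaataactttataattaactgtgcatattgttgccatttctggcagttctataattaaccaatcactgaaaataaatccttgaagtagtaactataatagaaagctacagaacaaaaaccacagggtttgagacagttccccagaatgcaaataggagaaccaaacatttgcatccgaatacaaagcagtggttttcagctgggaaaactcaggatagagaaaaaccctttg
Il33: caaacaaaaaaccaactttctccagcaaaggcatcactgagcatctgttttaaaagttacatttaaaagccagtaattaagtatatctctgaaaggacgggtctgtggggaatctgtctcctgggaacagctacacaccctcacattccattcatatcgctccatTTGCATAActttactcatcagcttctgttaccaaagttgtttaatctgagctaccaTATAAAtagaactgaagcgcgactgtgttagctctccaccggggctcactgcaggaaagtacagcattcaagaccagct

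The Il1a, Il1b and second Il33 windows each held TATAAA near the start site, at -32, -31 and -29, and the Il18 window held no match to any motif searched. The first Il33 window, not shown, held TATAAA at -203 and no other match. TATAAA was searched on the transcribed strand only and stood in 4 of the 13 windows of the 8 genes, against 8.32% of all 32851 windows. The Il1a window had an AP-1 match at -12 (TGACTCA), and the Il33 window a C/EBP match at -85 (TTGCATAA). AP-1 and C/EBP were searched on both strands and stood in 2 and 3 of the 13 windows, against 7.81% and 10.8% of all windows. The kappa-B consensus, searched on both strands, matched 1 of the 13 windows of the 8 genes, the second of Il1r1 at -232, against 8.46% of all windows. GAS (TTCNNNGAA), searched on both strands, matched 1, that of Il1r2, against 8.30% of all windows. The matches in the printed windows did not overlap, and a match describes letters only. In RefSeq's gene order Il1a and Il1b are neighbours on chromosome 2, which also holds Il1rn, and Il1r2, Il1r1, Il1rl2 and Il1rl1 follow each other on chromosome 1.

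Of the 7 genes with a probe set, 6 passed the filter, which asked for a value over the array's own median on 1 array or more. Il1a did not pass. A level of 1.39, the top reading among 9 Y-linked probe sets where Xist was bright, was taken as background. Of the 10 probe sets, 9 lay above it on all 4 arrays. The other, 1459777_at of Il1r1, lay between 0.58 and 0.79 and was not above background on any.

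**Figure D1:**
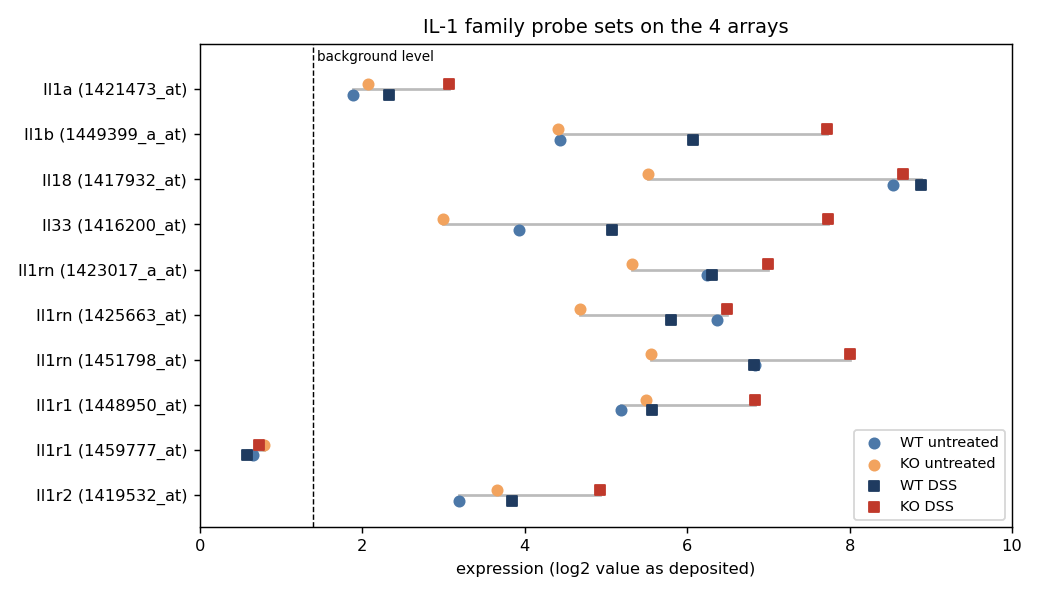
Log2 expression (horizontal axis) of the 10 IL-1 family probe sets, 1 point per array: circles are untreated, squares DSS-treated, and the dashed line is the background level of 1.39. The KO DSS array is highest for 8 of the 10 probe sets, and the untreated KO array stands low for Il18 (5.52) and for all 3 Il1rn probe sets.

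Il1b was the cytokine with the plainest step from untreated to DSS. Its values (1449399_a_at) were 4.44 on the untreated WT, 4.41 on the untreated KO, 6.07 on the WT DSS and 7.72 on the KO DSS array. The untreated arrays were level, and the KO DSS array stood above the WT DSS array. Il1b was 3.10-fold higher on the WT DSS array than untreated (log2 difference 1.63) and 9.92-fold higher in KO (3.31). Against WT, the KO array differed by -0.03 without DSS and by 1.65 with DSS.

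Il33, the nuclear alarmin, had the widest range over the arrays among the 10 probe sets. It read (1416200_at) 3.93 on the untreated WT, 2.99 on the untreated KO, 5.07 on the WT DSS and 7.74 on the KO DSS array. With DSS it was 2.20-fold higher in the WT colon and 26.9-fold higher in the KO colon, differences of 1.14 and 4.75. Without DSS it was lower in KO by 0.94 on the log2 scale, and with DSS it was higher in KO by 2.67. Among the 12189 genes kept, its KO minus WT difference with DSS lay at percentile 99.8.

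Il18, the cytokine of resting epithelium, differed on 1 array from the other 3. It read (1417932_at) 8.54 on the untreated WT, 8.88 on the WT DSS and 8.66 on the KO DSS array, and 5.52 on the untreated KO array. Its DSS difference was therefore 0.34 in WT and 3.14 in KO, and its KO minus WT difference was -3.02 without DSS, an 8.11-fold lower value, and -0.22 with DSS. The KO DSS value lay 0.12 above the untreated WT value.

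The untreated KO array also stood apart in markers of gut position, and the other arrays were not level in them. All 7 kept genes of the distal colon list were at least 2-fold lower there than on the untreated WT array (5.99% of all genes). Of these, Hoxd11 passed the filter only through the untreated WT array. Hoxb13, a homeobox gene of the distal gut, read 2.48 on the untreated KO array and 9.47, 7.84 and 8.40 on the untreated WT, WT DSS and KO DSS arrays. Against the untreated WT array, 5 of the 7 were also at least 2-fold lower on the WT DSS array (4.96% of all genes). On the KO DSS array 6 were (5.05%). Hoxd13 read 8.82 on the untreated WT, 3.36 on the untreated KO, 4.22 on the WT DSS and 7.20 on the KO DSS array. Of 7 kept small intestine and proximal colon markers, 6 were at least 2-fold higher on the untreated KO than on the untreated WT array (3.43% of all genes). In the same comparison 1 was lower (5.99%). Fabp2, an enterocyte fatty acid binding protein, read 10.62 against 6.72. But Slc10a2 and Osr2 passed the filter only through the untreated KO array, and so had to be higher there. Against the untreated WT array, 3 of the 7 were higher on the WT DSS array (5.82%) and 1 lower (4.96%). On the KO DSS array 1 was higher (6.14%) and 2 lower (5.05%). Epithelial markers were all detected: the summed level of the 12 markers, all kept, was 24320 on the untreated WT, 32140 on the untreated KO, 23520 on the WT DSS and 20090 on the KO DSS array. Car1, a carbonic anhydrase gene at 10.19 on the untreated WT and 12.90 on the untreated KO array, carried most of that gap: without it the untreated sums were 23160 and 24500. Of the 12, 2 were at least 2-fold higher on the untreated KO than on the untreated WT array (3.43% of all genes). These were Car1 and the homeobox gene Cdx2, at 8.40 against 6.15. Slc26a3, a chloride transporter of colon epithelium, was the 1 at least 2-fold lower (-1.90, against 5.99% of all genes). The median difference of the 12 was 0.19, and the adhesion molecule gene Cdh1 differed by -0.66. Smooth muscle markers, 8 of 8 kept, summed to 9151, 4841, 6069 and 6724 on the same arrays. Of these, 3 were at least 2-fold lower on the untreated KO than on the untreated WT array (5.99% of all genes). Of 10 squamous markers of the anal canal 2 were kept, and neither was 2-fold apart in any comparison. The part of tissue position or layer in the Il18 value was not tested. In whole tissue, fewer cells of a type and less RNA per cell cannot be told apart.

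Il1a, whose product acts as an alarmin from damaged cells, was dim throughout. It read (1421473_at) 1.88 on the untreated WT, 2.07 on the untreated KO, 2.33 on the WT DSS and 3.07 on the KO DSS array. All were above background and below the array median. Its DSS differences were 0.45 in WT and 1.00 in KO, in the direction of Il1b.

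The antagonist Il1rn was read by 3 probe sets that agree in part. The probe set with the highest mean, 1451798_at, had 6.84 on the untreated WT, 5.55 on the untreated KO, 6.82 on the WT DSS and 8.00 on the KO DSS array. The second, 1423017_a_at, had 6.25, 5.32, 6.31 and 7.00 on the same arrays in that order, and 1425663_at had 6.37, 4.68, 5.80 and 6.49. All 3 were lowest on the untreated KO and highest on the KO DSS array. Their DSS differences in WT were -0.02, 0.06 and -0.57, and in KO 2.45, 1.68 and 1.81. With DSS, KO was higher than WT by 1.18 on the first and by 0.69 on each of the others, so that only the first was past 2-fold.

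Il1b and Il1rn had unequal DSS differences in WT. With DSS, Il1b was higher by 1.63 while Il1rn (1451798_at) was lower by 0.02 on the log2 scale, an excess of Il1b over its antagonist of 1.65. In KO the excess was 0.86, where Il1rn was higher as well. On 1423017_a_at the excess was 1.57 in WT and 1.63 in KO, and on 1425663_at it was 2.20 in WT and smaller in KO, where Il1b differed by 3.31 and Il1rn by 1.81. With the untreated WT array as baseline, the excess on the KO DSS array was 2.12, 2.53 and 3.16 on the probe sets 1451798_at, 1423017_a_at and 1425663_at. Whether the excess was smaller in KO than in WT therefore depended on the probe set and on the baseline array. Between the DSS arrays, KO minus WT, it was 0.47 on 1451798_at and 0.96 on each of the others. These are differences between changes on the same arrays and say nothing about the relative amounts of the proteins.

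The 2 receptor genes with kept probe sets were highest on the KO DSS array. Il1r1, the signalling receptor, read 5.18 on the untreated WT, 5.49 on the untreated KO, 5.57 on the WT DSS and 6.83 on the KO DSS array (1448950_at). Il1r2, the decoy (1419532_at), read 3.19, 3.66, 3.84 and 4.93 on the same arrays in that order. Both were in the same order over the arrays. The DSS differences of Il1r1 were 0.39 in WT and 1.34 in KO, and those of Il1r2 0.65 and 1.27. Between the DSS arrays, KO was higher by 1.26 for Il1r1 and 1.09 for Il1r2.

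**Figure D2:**
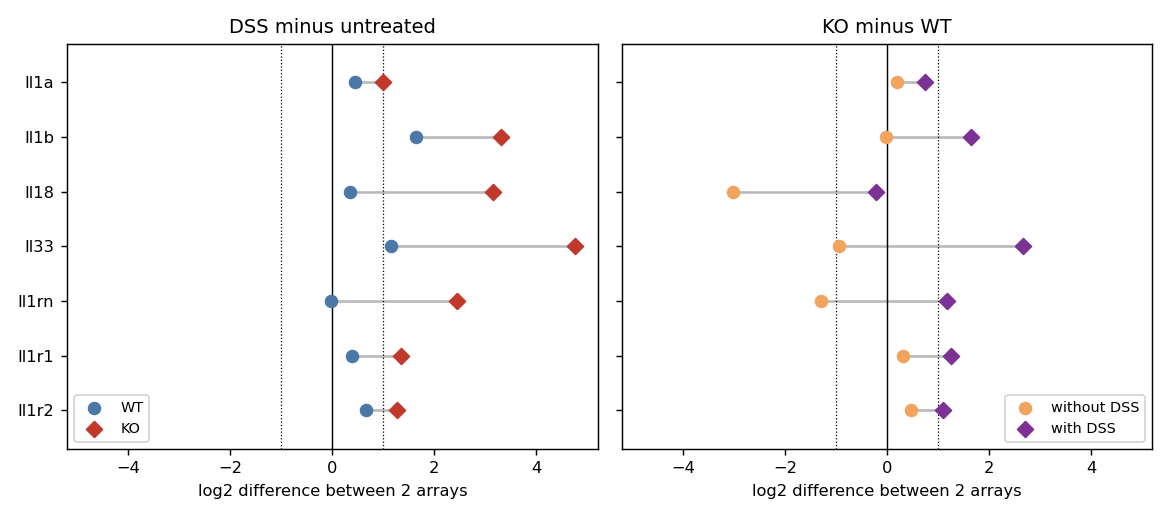
Log2 differences between pairs of arrays for the 6 kept genes and Il1a: DSS minus untreated in WT and KO (left) and KO minus WT without and with DSS (right), with dotted lines at 2-fold. Every DSS difference is larger in KO than in WT, and Il18 (-3.02) and Il1rn (-1.29) are past 2-fold lower in the untreated KO colon.

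In WT, DSS gave values at least 2-fold higher for 2 of the 6 kept genes (Il1b and Il33), where 5.82% of all genes kept were, and 0 were lower, against 4.96%. The median of the 6 was 0.52, and that of all genes -0.01. In KO all 6 were at least 2-fold higher, against 10.8% of all genes, and 0 were lower (6.68%), with medians of 2.79 for the 6 and 0.06 for all genes. With the untreated WT array in place of the untreated KO array as baseline, 5 of the 6 were at least 2-fold higher on the KO DSS array, all but Il18, against 6.14% of all genes. The values were then 3.28 for Il1b, 3.81 for Il33, 1.16 for Il1rn, 1.65 for Il1r1 and 1.74 for Il1r2. The WT and KO comparisons with that baseline share the untreated WT array.

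Without DSS, 0 of the 6 were at least 2-fold higher in KO (3.43% of all genes) and 2 were lower, Il18 and Il1rn (5.99%), with a median of -0.48 against -0.01 over all genes. With DSS, 5 were higher in KO, all but Il18 (4.22%), and 0 lower (1.21%), with a median of 1.22 against -0.02. The DSS difference was larger in KO than in WT for all 6, and by at least 2-fold for 4 (Il1b, Il18, Il33 and Il1rn), against 12.3% of all genes, while 0 were below it by that much (5.92%). That difference was 3.61 for Il33, 2.80 for Il18, 2.47 for Il1rn and 1.68 for Il1b. It has no test with 1 array per group.

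Averaged over the genotypes, limma's additive model put the DSS difference at 2.47 for Il1b (SE 0.49), 2.94 for Il33 (SE 0.97) and 1.74 for Il18 (SE 0.76). For Il1rn it was 1.22 (SE 0.68), for Il1r2 0.96 (SE 0.32) and for Il1r1 0.86 (SE 0.33). None of the 6 passed at an adjusted p under 0.05, nor did any of the 12189 genes (0%). The smallest adjusted p over all genes was 0.364, which is also that of Il1b, and the largest of the 6 was 0.579, for Il1rn. At an unadjusted p under 0.05 in limma there were 3 of the 6 (Il1b, Il33 and Il1r2), where 11.8% of all genes were. For KO against WT over both treatments 0 passed (0% of all genes), 0 of the 6 had an unadjusted p under 0.05 against 1.44% of all genes, and each of the 6 had an adjusted p of 1.00. The model leaves 1 residual degree of freedom, to which limma added 2.68 (median over genes) from the other genes, so each SE combines how unequal the gene's own effects were with the spread over all genes.

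Most other genes of the family were within 2-fold, as most of all genes kept were. Of 11 further ligands, receptors and binding proteins, all on the array, 6 passed the filter. With DSS in WT, 0 of the 6 were at least 2-fold higher (5.82% of all genes) or lower (4.96%). In KO 0 were lower (6.68%) and 1 was higher (10.8%). That gene was Il18rap, a chain of the IL-18 receptor, at 3.38 on the untreated WT, 3.87 on the untreated KO, 3.50 on the WT DSS and 5.03 on the KO DSS array. Il1rap, the accessory chain shared by IL1R1 and the IL-33 receptor, differed by -0.09 in WT and 0.46 in KO. Il18bp, which neutralises IL-18, differed by 0.63 and -0.27, and Sigirr, an inhibitory receptor of epithelium, by -0.16 and -0.83. The IL-36 genes Il36a, Il36b and Il36rn did not pass, and Il36g passed through the untreated KO array, at 3.80.

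Genes that mature the cytokines were mostly within 2-fold, as most of all genes kept were. Of 14 kept genes (18 listed), 0 were higher with DSS in WT (5.82% of all genes) and 2 were lower (4.96%). The lower ones were Txnip, a redox protein that binds NLRP3 (-1.01), and P2rx7, the ATP-gated channel upstream of NLRP3 (-1.07). In KO 3 were higher (10.8% of all genes) and 2 lower (6.68%). The higher ones in KO were Mefv, the gene of the pyrin sensor (1.63), the mast cell protease Cma1 (1.25) and the NLRP3 partner Nek7 (1.01). The lower ones in KO were the epithelial sensor Nlrp6 (-1.65) and the inflammasome adaptor Pycard, at 9.67 untreated and 8.67 with DSS. Casp1, which cuts IL-1 beta and IL-18, read 8.36 on the untreated WT, 8.45 on the untreated KO, 8.14 on the WT DSS and 8.05 on the KO DSS array, and Gsdmd, the pore that lets the cytokines out, 8.18, 8.08, 8.32 and 8.75. Nlrp3 itself differed by 0.34 in WT and -0.08 in KO. With DSS in KO, where Il1b was higher by 3.31, Casp1 differed by -0.40. Against the untreated WT array, 1 of the 14 was higher on the KO DSS array (Mefv, 1.71, against 6.14% of all genes) and 0 were lower (5.05%).

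Receptor-proximal signalling genes, like most of all genes kept, were largely within 2-fold. Of 15 kept genes (18 listed), 0 were at least 2-fold higher (5.82% of all genes) or lower (4.96%) in WT. In KO 1 was higher (10.8%), the kinase gene Irak1 (1.20), and 0 were lower (6.68%). Medians were 0.11 in WT and 0.39 in KO, against -0.01 and 0.06 over all genes. Against the untreated WT array, 0 of the 15 were higher (6.14% of all genes) or lower (5.05%) by 2-fold on the KO DSS array, with Irak1 at 0.80. The adaptor gene Myd88 had DSS differences of 0.37 in WT and 0.40 in KO. Of 11 kept genes of NF-kB feedback and inducible genes, 1 was higher in WT (Bcl3, 1.10, against 5.82% of all genes) and 1 lower (Tnip1, -1.14, against 4.96%). Their median was -0.08. In KO 5 were higher (10.8% of all genes) and 0 lower (6.68%), with a median of 0.94. The 5 were the adhesion molecule Icam1 (2.24), the NF-kB inhibitors Nfkbie (2.22) and Tnfaip3 (1.35), the nuclear NF-kB cofactor Nfkbiz (1.38) and the ubiquitin ligase Birc3 (1.26). On the untreated KO array, 3 of the 5 (Birc3, Nfkbiz and Tnfaip3) were at least 2-fold lower than on the untreated WT array, against 5.99% of all genes. With that WT array as baseline, 2 of the 11 were higher on the KO DSS array, Icam1 (1.81) and Nfkbie (1.46), against 6.14% of all genes.

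The list of secreted and enzyme genes that IL-1 can induce lay mostly in the direction of Il1b. Of 13 kept genes (14 listed), the WT DSS array had 9 at least 2-fold higher than untreated (5.82% of all genes) and the KO DSS array 12 (10.8%). In WT 1 was lower (Ccl20, -1.28, against 4.96% of all genes). But 8 of the 13 passed the filter only through DSS arrays, 3 of them (Il6, Csf3 and Lcn2) only through KO with DSS, and so had to be higher with DSS. Of the other 5, 4 were higher in WT and 4 in KO, and these were Cxcl1, Lif, Ptgs2 and Saa3 in both. The chemokine gene Cxcl5 had DSS differences of 4.58 (WT) and at least 7.21 (KO), and Cxcl2 of 3.38 and 5.62. The stromal protease gene Mmp3 was higher by 3.66 and 6.63, from untreated values of 1.80 (WT) and 1.58 (KO), near the background level. The collagenase gene Mmp13 was higher by 1.39 and 5.40. Many other signals than IL-1 induce these genes, and the part of IL-1 in them was not tested.

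Genes of the type 2 response that IL-33 can drive were mostly within 2-fold or too dim to pass. Of 7 kept genes (14 listed), 1 was at least 2-fold higher in each genotype, against 5.82% of all genes in WT and 10.8% in KO. It was Chil3, a chitinase-like protein of myeloid cells (1.30 in WT, 4.75 in KO), and it passed only through DSS arrays. Retnla, a resistin-like gene, was lower in WT (-1.37, against 4.96% of all genes). Il13 lay at 1.99 on both WT arrays and at 1.93 on both KO arrays, Il5 was not above background on any array, and Il4 was above it only on the untreated KO array (1.60). Gata3, the transcription factor of type 2 lymphocytes, lay between 1.53 and 1.90. Between the DSS arrays, 3 of the 7 were higher in KO, Chil3 (3.59), Rora (1.20) and Il7r (1.00), against 4.22% of all genes. Against the untreated WT array, Chil3 (4.89) and Rora (1.00) were higher on the KO DSS array (6.14% of all genes) and Retnla (-1.31) lower (5.05%).

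**Figure D3:**
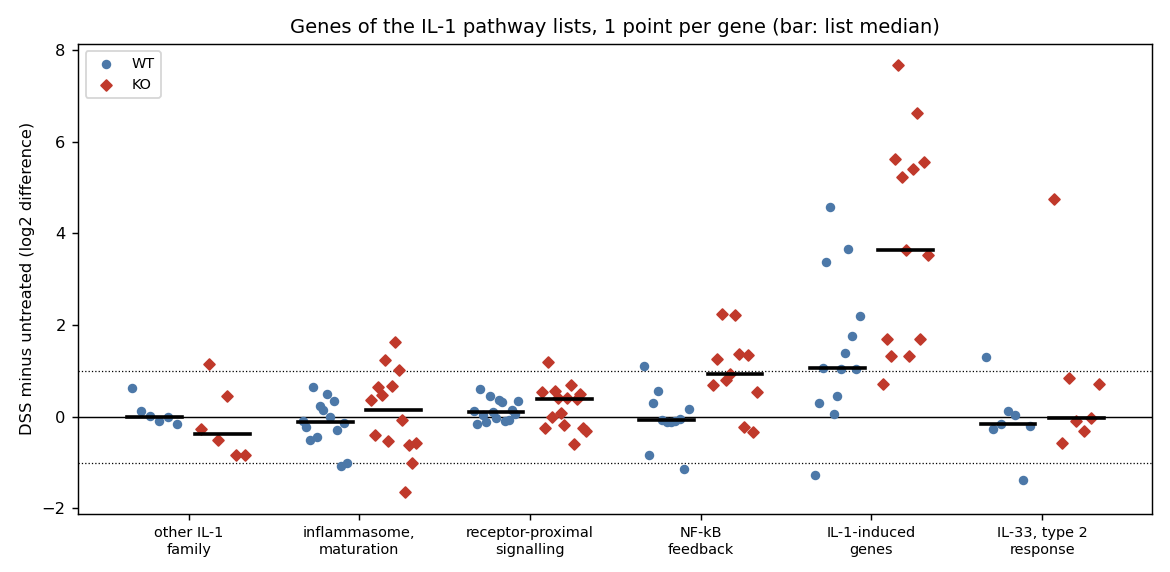
DSS minus untreated log2 difference (vertical axis) of each kept gene in 6 lists of the IL-1 pathway, in WT (circles) and KO (diamonds); black bars are list medians and dotted lines 2-fold. The highest KO point is Cxcl5, plotted from an untreated KO value below background (at least 7.21), as is Il6 (at least 4.89), and Mmp3 lies at 6.63, whereas the receptor-proximal genes lie between -0.60 and 1.20.

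Marker genes of the cells that make and answer these cytokines were read on the same arrays. Of 15 neutrophil markers, 12 had a named probe set and 9 were kept, 6 of them only through DSS arrays. With DSS, 3 of the 9 were past 2-fold higher in WT (5.82% of all genes) and 7 in KO (10.8%). Of the 3 that did not pass only through DSS arrays, 1 was higher in WT (Ltf) and 2 in KO (Csf3r and Fpr2). Cxcr2, Ngp and Camp did not pass: they read 2.70, 2.66 and 2.44 on the untreated KO and 2.33, 2.53 and 2.22 on the KO DSS array. On the untreated WT array they read 1.98, 2.37 and 2.10, and on the WT DSS array 2.33, 2.56 and 2.31. The summed level of the 9 kept markers, as linear values, was 57.25 on the untreated WT, 84.78 on the untreated KO, 162.8 on the WT DSS and 862.1 on the KO DSS array. The alarmin genes S100a8 and S100a9 made up 648.3 of the last value. Csf3r, Fpr2 and Ltf summed to 29.59, 52.73, 46.87 and 142.7 on the same arrays in that order. Of 14 monocyte and macrophage markers, 11 were kept, with summed levels of 1241 to 1663. In WT 0 were at least 2-fold higher (5.82% of all genes) or lower (4.96%). In KO 1 was higher (Cd14, 1.36, against 10.8%) and 2 lower (C1qa, -1.13, and C1qc, -1.25, against 6.68%). Against the untreated WT array, 0 were higher (6.14% of all genes) or lower (5.05%) by 2-fold on the KO DSS array. Fibroblast markers, 10 of 10 kept, had summed levels of 2884, 2316, 2138 and 4360 on the untreated WT, untreated KO, WT DSS and KO DSS arrays. With DSS 4 of the 10 were at least 2-fold higher in KO (10.8% of all genes) and 0 in WT (5.82%). Against the untreated WT array, 1 of the 10 was higher on the KO DSS array (Dcn, 1.04, against 6.14% of all genes). Endothelial markers, 10 of 10 kept, had summed levels from 266.5 to 392.2, with the KO DSS array highest. But 3 of the 10 passed the filter only through DSS arrays, 2 of them (Cdh5 and Tie1) only through KO with DSS. T cell markers, 7 of 10 kept, ranged from 133.5 to 231.4, and 1 of the 7 passed only through DSS arrays. The part of cell numbers in the values of the IL-1 family genes was not tested.

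**Figure D4:**
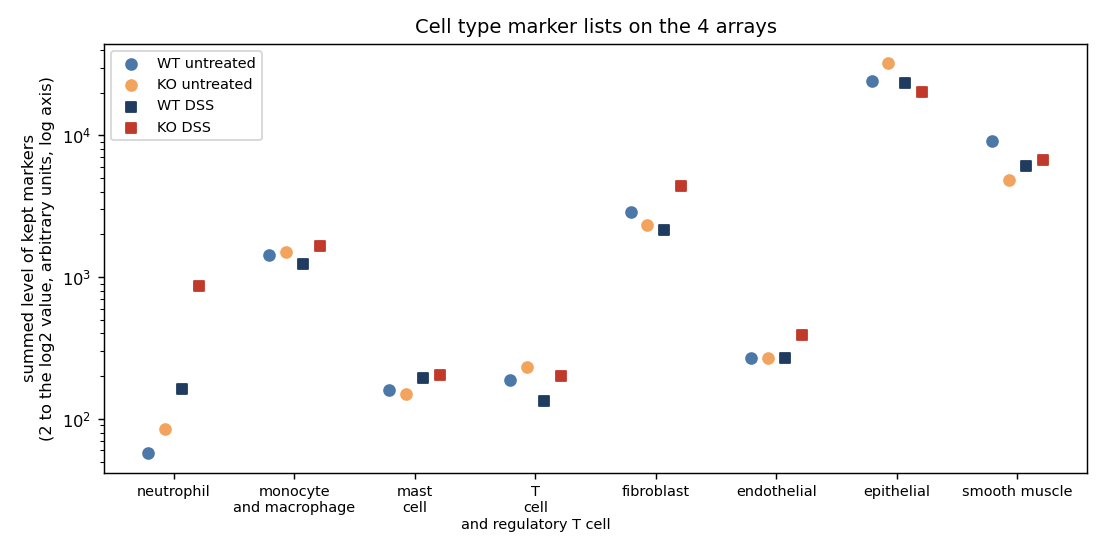
Summed linear level of the kept markers of 8 cell types (vertical log axis, arbitrary units), 1 point per array; circles are untreated and squares DSS-treated. Neutrophil markers span 57.25 to 862.1 over the 4 arrays, but 6 of the 9 passed the filter only through DSS arrays. The other 3 sum to between 29.59 and 142.7. Monocyte and macrophage markers stay between 1241 and 1663.

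Genes with the nearest profile to each member were found by the root mean square difference of log2 values centred over the 4 arrays. For Il1b the nearest were Timp1, a metalloprotease inhibitor (0.18), and Cers3, a ceramide synthase gene (0.14) that was not above background on either untreated array. For Il33 they were Tnfaip2 (0.29) and Ly6d (0.32), and no gene lay within 0.25. For Il18 they were Hoxa9 (0.11), a homeobox gene, and Csta1 (0.15), and 3 genes lay within 0.25. Hoxa9 read 7.63 on the untreated WT, 4.79 on the untreated KO, 7.88 on the WT DSS and 7.90 on the KO DSS array, low on the same array as Il18. For Il1rn they were Phldb2 (0.06) and Pdgfrb (0.08), for Il1r1 the scavenger receptor gene Msr1 (0.04) and Smim3 (0.05), and for Il1r2 Scara5 (0.05) and Il1r1 (0.10). With 4 arrays such likeness is common: 48 genes lay within 0.25 of Il1rn, 74 of Il1r2 and 92 of Il1r1.

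The targeted gene was dim. The brighter Adamts12 probe set, 1439827_at, read 2.18 on both WT arrays, 1.42 on the untreated KO and 1.41 on the KO DSS array, so KO was lower in both treatments. The other, 1446666_at, lay between 0.71 and 0.97 and was not above background. These values check the genotype labels only weakly.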

How the data were processed

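Distal colon RNA of 4 mice was measured on 4 Affymetrix arrays. Per the labels' protocols, Trizol was used for total RNA, which was turned into biotinylated cRNA. The authors' deposited values, from 0.16 to 13.23, were taken as log2, because as a natural log the top value would be 556821, above the 65535 of a 16-bit scanner. Summarization and normalization are not given in the sources used here. Column medians lay between 3.42 and 3.46, and the values were used as deposited.

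Of 45101 probe sets, 64 were controls, 34945 had 1 gene symbol and 932 had several. Symbols were updated by Entrez number through a RefSeq table (GRCm38.p6), where 34741 matched. The Il36 genes stand there under older symbols. Probe sets with 1 symbol above the array median on at least 1 array were kept, a gene being its brightest kept probe set by mean (12189 genes). Differences between a pair of arrays have no test. DSS (genotype as covariate) and KO (treatment as covariate) were tested with limma 3.58.1 in R 4.3.3 (lmFit, eBayes with trend, two-sided, Benjamini-Hochberg over all genes, threshold 0.05). The fit was also run on simulated data, and how many simulated effects it called is not reported here.

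The members and lists were chosen with earlier results of these data known. All members were named, and for each list the genes past 2-fold where 5 or fewer, or up to 4 with the largest mean DSS difference, and a few list members within 2-fold that were chosen after their values were seen. For each member the 2 nearest profiles were named. The untreated WT baseline for the lists, the Il1b and Il1rn comparison by probe set, and the marker sums without Car1 or without markers that passed only through DSS arrays were chosen after seeing the data. Other alternatives covered scaling, the filter, the probe sets of a gene and the model. Protein sequences were not used here. Calculations used Python 3.11.15, pandas 2.3.3 and numpy 2.4.6, and plots matplotlib 3.10.9.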

Additional observations from a re-analysis of the deposited data

Results flagged for a closer look

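Several genes had KO minus WT differences of opposite sign without and with DSS, on 1 array per group, and the difference between them was not tested. For Il33 they were -0.94 and 2.67, and for Il1b -0.03 and 1.65, where the first is close to 0. For Il1rn they were -1.29 and 1.18 on 1451798_at, -1.69 and 0.69 on 1425663_at, and -0.93 and 0.69 on 1423017_a_at. The DSS difference of Il1rn was also of opposite sign in WT and KO, at -0.02 and 2.45 on 1451798_at and at -0.57 and 1.81 on 1425663_at, again untested. The first of these, -0.02, is close to 0, and on 1423017_a_at both were positive, at 0.06 and 1.68.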

How the results depend on the processing

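Of 99 counts recomputed under an alternative, 96 stayed within 1.5 times the reported count. Leaving out probe sets whose ID marks possible matches to several transcripts removes Il1b, and DSS then took 1 of 5 kept genes past 2-fold higher in WT. In limma's test of DSS, 1 gene in place of 0 passed after quantile normalization and 1 without the covariate, and 0 of the IL-1 family genes passed in either. Of 268 single-gene values, 265 kept their side of the threshold and 2 were no longer past 2-fold: Il1rn between the DSS arrays as the mean over its probe sets (0.85) and Il18 with DSS in KO against the untreated WT array (0.12). The KO against WT value of Il1rn over both treatments, -0.06, turned to 0.0088 after quantile normalization. Many of the 265 could not differ. The filter, transcript-match and model settings returned the same value for each gene kept, and the mean over probe sets could change only Il1rn. For limma's values the threshold was the adjusted p, which 0 of the IL-1 family genes passed in any setting. Many of the counts rest on these same values. These totals leave out the alternatives chosen after seeing the data, whose values stand beside each list and comparison. With the array median as background, 6 in place of 9 of the 10 probe sets lay above it on all arrays. No paired analysis was possible because each group has 1 array and the labels give no replicate numbers. Leaving out an array leaves the additive model without residual degrees of freedom, so it was not run.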

Other observations

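Mast cell markers, which belong to cells that answer IL-33, were higher with DSS for part of the list. Of 10 markers 6 were kept, Cpa3 only through KO with DSS, and Fcer1a, Ms4a2, Mcpt4 and Tpsb2 did not pass. With DSS in WT, 2 of the 6 were at least 2-fold higher (5.82% of all genes) and 1 lower (4.96%). In KO 5 were higher (10.8%) and 1 lower (6.68%). Against the untreated WT array, 3 were higher on the KO DSS array (6.14%) and 0 lower (5.05%). The mucosal mast cell proteases Mcpt1 and Mcpt2 had DSS differences of 1.77 and 1.36 in WT, and 3.30 and 2.56 in KO. Mcpt1 read 5.91 on the WT DSS and 5.92 on the KO DSS array, so the wider difference in KO came from the untreated KO array, at 2.62 against 4.14 in WT. Kit, the stem cell factor receptor, went the other way, by -1.08 in WT and -1.31 in KO. Cma1 differed by -0.45 in WT and 1.25 in KO. Between the DSS arrays, KO minus WT, the 6 kept markers differed by 0.01 (Mcpt1), -0.39 (Mcpt2), 0.59 (Cpa3), 1.14 (Hdc), 0.24 (Cma1) and 0.10 (Kit). Hdc encodes the enzyme that makes histamine.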
